A study of Mus musculus with 5 samples.

Results

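Feedback inhibitors of receptor signalling are genes whose products dampen the signal that an activated receptor sends into the cell. The set held 8 genes, picked as a list of names with earlier results of these data known: the MAP kinase phosphatase genes Dusp2, Dusp4, Dusp5 and Dusp6, the Sprouty genes Spry1 and Spry2, the ubiquitin ligase gene Cblb and the stress-response gene Gadd45b. All 8 were found among the 13911 genes of the table of all time points. They were followed in 13629 OT-I CD8+ T cells of the mouse strain C57BL/6-Tg(TcraTcrb)1100Mjb/J, which carry a transgenic receptor for the ovalbumin peptide SIINFEKL. They had been taken from spleen and lymph nodes, were kept in RPMI-1640 medium, and were sorted and loaded at once for 10x Genomics droplet sequencing. The 5 groups were 2952 cells at 0 h without co-culture, 2247 cells after 24 h with peptide-loaded dendritic cells (DCs) and myeloid-derived suppressor cells (MDSCs), 1562 cells after 24 h with DCs alone, 4942 cells after 72 h with DCs and MDSCs and 1926 cells after 72 h with DCs alone. MDSCs are myeloid cells that hold back T cell responses in tumours and inflammation; where they came from, and how many mice were used, was not stated in the labels. No group was cultured without peptide, so stimulation cannot be told apart from time in culture.

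Each group was 1 library, so nothing below could be checked in replicates or tested, and a ratio compares 2 libraries only. The library of 24 h with DCs enters 3 of the 5 comparisons. The deposited values were whole numbers that the authors had adjusted to a nearly constant total per cell (adjusted counts, 13061 to 15988 per cell), so the molecules sequenced per cell are unknown. A level (CPM) is the sum of a gene's adjusted counts over a library, per 1000000 of the total, and shares of cells above 0 carry exact (Clopper-Pearson) 95% intervals that cover counting error only. Genes above 0 in a cell numbered 3111 to 3621 (medians) in the 24 h and 72 h libraries, against 2210 at 0 h. In the 0 h library 0 to 9.24% of the values above 0 of Dusp2, Dusp4, Dusp5, Dusp6, Spry2 and Cblb equalled 1, against 25.1 to 100.0% in the other libraries; for Gadd45b it was 73.5% at 0 h. What set the 0 h values apart was not tested, and folds against 0 h carry a bias of unknown size. Of the T cell marker list 6 of 8 genes were in the table and none was at 0 in any library; Cd8a was above 0 in 93.8 to 100.0% of the cells. Between 30 and 61 cells per library had a barcode that also occurred in another library.

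When a T cell receptor is engaged, the kinases ERK, JNK and p38 carry the signal to the nucleus, and with calcium and NF-kB they switch on genes such as Il2, the gene of the growth factor interleukin 2. The same signals switch on brakes. Dual-specificity phosphatases remove the activating phosphates from the MAP kinases: those of Dusp2, Dusp4 and Dusp5 act in the nucleus and that of Dusp6 mainly on ERK in the cytoplasm. Sprouty proteins act upstream, on RAS and ERK. The product of Cblb attaches ubiquitin to signalling proteins near the receptor and raises the need for costimulation. The protein of Gadd45b, a target of NF-kB, blocks the JNK arm and can also activate the p38 arm, so it is not a brake in every setting.

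The promoters are shown because 4 of these genes, Dusp2, Dusp5, Spry1 and Gadd45b, shared a peak at 24 h and a relation to Il2. RefSeq promoter entries (GRCm38.p6) were matched for 7 of the 8 genes, all but Dusp4. The stretch up to 250 bases before each start site was searched on both strands. The motifs were AP-1 (TGANTCA), CRE (TGACGTCA), NFAT (GGAAAA), NF-kB (GGANTTTCC), EGR (GCGTGGGCG), ETS (CCGGAAGT), the GC box (GGGCGG) and the serum response factor motif, known as the CArG box. Capitals mark GC boxes in all 4 sequences below, read 5′ to 3′, and also the CArG boxes in that of Dusp5. They lie on the plus strand at chr19:53528895-53529108 (Dusp5), chr3:37639697-37639946 (Spry1), chr2:127335909-127336158 (Dusp2) and chr10:80929841-80930072 (Gadd45b), and each ends 1 base before the gene start of the GENCODE annotation, which for Dusp5 and Gadd45b lies before the RefSeq start.
Dusp5: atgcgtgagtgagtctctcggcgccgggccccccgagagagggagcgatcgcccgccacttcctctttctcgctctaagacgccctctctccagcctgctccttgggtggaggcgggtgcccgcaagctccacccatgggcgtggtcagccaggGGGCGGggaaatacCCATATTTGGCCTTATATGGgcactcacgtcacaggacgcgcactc
Spry1: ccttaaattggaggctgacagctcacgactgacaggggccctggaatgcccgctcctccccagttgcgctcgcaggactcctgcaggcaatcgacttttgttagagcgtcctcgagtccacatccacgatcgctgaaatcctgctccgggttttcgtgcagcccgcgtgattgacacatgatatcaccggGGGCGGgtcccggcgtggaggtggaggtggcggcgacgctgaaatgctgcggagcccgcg
Dusp2: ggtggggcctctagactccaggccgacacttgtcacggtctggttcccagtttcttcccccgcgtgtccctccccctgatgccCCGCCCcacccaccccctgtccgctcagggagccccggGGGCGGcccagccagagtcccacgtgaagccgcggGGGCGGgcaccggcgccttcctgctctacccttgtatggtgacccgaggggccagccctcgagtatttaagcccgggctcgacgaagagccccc
Gadd45b: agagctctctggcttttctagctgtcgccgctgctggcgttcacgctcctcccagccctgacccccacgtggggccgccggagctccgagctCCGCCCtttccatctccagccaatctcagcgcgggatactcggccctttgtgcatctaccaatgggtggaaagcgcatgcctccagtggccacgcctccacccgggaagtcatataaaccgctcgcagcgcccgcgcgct

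Dusp5 carried 2 CArG boxes side by side, 82 to 73 and 72 to 63 bases before its RefSeq start, and was alone among the 7 genes in holding that motif. Of 27018 promoters of the same length 1.40% held a CArG box. GC boxes were in 5 of the 7 promoters, against 32.9% of all: 3 in Dusp2, 2 in Cblb and 1 each in Dusp5, Spry1 and Gadd45b. The NFAT letters occurred in Spry2 alone of the 7, against 20.6% of all promoters, and the NF-kB letters in Dusp6 alone, against 1.05%. None of the 7 held the AP-1, CRE, EGR or ETS letters, which 6.87%, 1.62%, 0.540% and 2.93% of all promoters held. A match is a run of letters and not a bound site, and its absence concerns only this window.

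By transcript level, 5 members were highest at 24 h with DCs alone, namely Dusp2, Dusp4, Dusp5, Spry1 and Gadd45b. Cblb was highest at 24 h with DCs and MDSCs and Dusp6 at 0 h, while Spry2 was too low to rank. Fewer cells with the transcript and less transcript per cell are both part of a level, so shares of cells above 0 are given beside it.

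Among the nuclear phosphatases, Dusp2, a T cell phosphatase for ERK and p38, stood at 76.2 CPM at 0 h, 185 at 24 h with DCs and MDSCs, 191 at 24 h with DCs, 16.0 at 72 h with DCs and MDSCs and 28.7 at 72 h with DCs. It was already above 0 in 35.5% of the cells at 0 h, was above 0 in 78.8% and 79.4% at 24 h with and without MDSCs, and in 18.0% and 27.5% at 72 h. Its listed 72 h levels were below that at 0 h. At 0 h 7.26% of its values above 0 equalled 1, against 76.6% and 67.1% at 72 h with and without MDSCs. The 0 h level thus rests on adjusted values that cannot be set beside those of 72 h.

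Dusp5, an ERK-specific phosphatase, was at 4.33 CPM at 0 h, 54.3 at 24 h with DCs and MDSCs, 58.3 at 24 h with DCs, 11.4 at 72 h with DCs and MDSCs and 15.9 at 72 h with DCs. About the same share of cells carried it in the 24 h libraries, 47.7% (45.6 to 49.8%) with MDSCs and 52.0% (49.5 to 54.5%) without. An antisense gene, AC137853.2, overlaps Dusp5, as Gm42922 overlaps Spry1 and Gm23513 overlaps Cblb. The labels do not say whether strand was used in counting, so reads of these pairs cannot be told apart.

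Dusp4, a phosphatase for ERK and JNK, was near absence at 0 h, at 0.242 CPM and above 0 in 5 of 2952 cells. Its level was 14.3 CPM at 24 h with DCs and MDSCs, 26.0 at 24 h with DCs, 4.29 at 72 h with DCs and MDSCs and 3.57 at 72 h with DCs. The intervals of the shares of cells did not overlap at 24 h, 17.4% (15.8 to 19.0%) with MDSCs and 28.3% (26.1 to 30.6%) without. At 72 h the shares were 6.01% (5.36 to 6.71%) with MDSCs and 4.83% (3.91 to 5.88%) without, and their intervals overlapped.

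The cytoplasmic phosphatase gene Dusp6 ran the other way, at 8.61 CPM at 0 h, 2.03 at 24 h with DCs and MDSCs, 2.92 at 24 h with DCs, 5.22 at 72 h with DCs and MDSCs and 5.38 at 72 h with DCs. It was below 10 CPM in every library. By share of cells the order differed: cells with Dusp6 above 0 made up 5.89% at 0 h, 2.98% at 24 h with DCs and MDSCs, 4.10% at 24 h with DCs, 7.28% at 72 h with DCs and MDSCs and 7.06% at 72 h with DCs. At 0 h 8.05% of its values above 0 equalled 1, against 84.6 to 95.5% in the other libraries, so its high 0 h level rests on adjusted values that cannot be set beside theirs.

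Spry1, the Sprouty gene with a clear signal, was listed at 0 in all 2952 cells at 0 h. This allows a share of up to 0.102% by a limit of 3 cells of 2952, and of up to 0.125% by the exact 95% interval. These limits concern cells with an adjusted value above 0, not cells that express the gene, since the depth behind these values is unknown. It was at 7.86 CPM at 24 h with DCs and MDSCs, 16.8 at 24 h with DCs, 0.320 at 72 h with DCs and MDSCs and 0.411 at 72 h with DCs. Cells above 0 made up 10.2% (9.01 to 11.6%) at 24 h with MDSCs and 19.97% (18.0 to 22.0%) without, against under 1% in the 72 h libraries. Its signal was thus almost limited to the 24 h libraries. Spry2 lay between 0.174 and 0.508 CPM in all 5 libraries and was above 0 in 5 to 23 cells of each, which is too few to rank the libraries.

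Cblb was at 8.81 CPM at 0 h, 32.3 at 24 h with DCs and MDSCs, 27.1 at 24 h with DCs, 19.1 at 72 h with DCs and MDSCs and 27.4 at 72 h with DCs. In the cultures without MDSCs its level at 72 h was about that at 24 h, whereas Dusp2, Dusp4 and Dusp5 were lower at 72 h.

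Gadd45b was at 11.5 CPM at 0 h, 246 at 24 h with DCs and MDSCs, 272 at 24 h with DCs, 9.27 at 72 h with DCs and MDSCs and 58.4 at 72 h with DCs. At 24 h Gadd45b was above 0 in 90.6% and 90.7% of the cells with and without MDSCs. At 72 h 11.3% (10.5 to 12.2%) of the cells with MDSCs and 47.2% (45.0 to 49.5%) of those without had it above 0. The 0 h share was 11.4% (10.3 to 12.6%). Genes above 0 in a cell had a median of 2210 at 0 h and 3111 at 72 h with MDSCs, so near-equal shares in these libraries do not show equal expression.

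**Figure D1:**
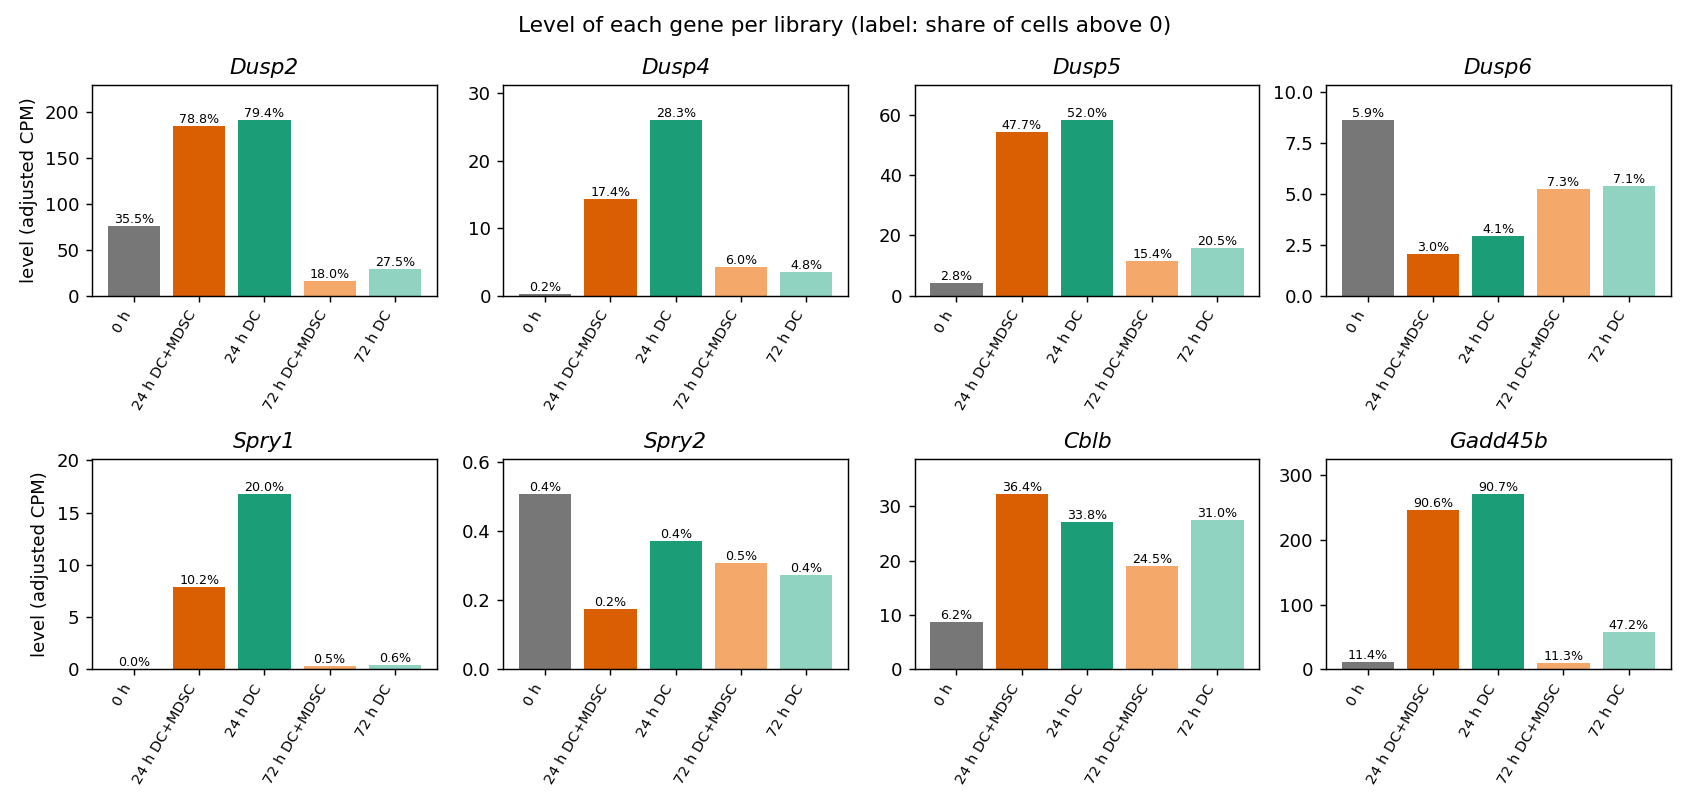
Level of each of the 8 genes in the 5 libraries, with a panel per gene and its own axis from 0 (adjusted CPM). Bars are single libraries and labels give the share of cells above 0. Gadd45b reached 272 CPM at 24 h with DCs and 9.27 CPM at 72 h with DCs and MDSCs, and Spry1 was listed at 0 at 0 h.

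Between 24 h with DCs and 0 h, 6 members reached 10 CPM or more in either library and all 6 were at least 2-fold higher at 24 h, as were 40.9% of the 7006 genes tested. Dusp4, Dusp5, Spry1 and Cblb passed the minimum through the 24 h library alone, so their part of that count was set by the filter. Gadd45b was 23.6-fold higher (log2 ratio 4.56) and Dusp2 2.51-fold higher (1.33). The median of all genes was itself 0.73. Relative to that median Dusp2 stood at 0.59 and Cblb at 0.89, under 2-fold, while Gadd45b stood at 3.83, Dusp5 at 3.02 and Dusp4 at 6.02. No member at the minimum was 2-fold lower, against 10.6% of genes.

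At 72 h, set against 24 h in the cultures with DCs alone, 5 of 6 members were at least 2-fold lower, as were 20.8% of 7336 genes. Spry1 was 40.8-fold lower at 72 h than at 24 h, Dusp4 7.30-fold, Dusp2 6.66-fold, Gadd45b 4.65-fold and Dusp5 3.65-fold. Spry1 and Dusp4 were at the minimum through 24 h only. The 72 h level of Spry1 rests on 12 of 1926 cells, so the size of its fold is uncertain. Its log2 ratio was -5.35, and -4.25 with 0.5 CPM added to both levels. The log2 ratio of Cblb was 0.02. With MDSCs in the cultures 4 of 5 members were 2-fold lower at 72 h, as were 24.7% of 7125 genes, with Gadd45b 26.5-fold, Dusp2 11.6-fold, Dusp5 4.77-fold and Dusp4 3.33-fold lower. Gadd45b and Dusp4 were at the minimum through the 24 h library only, so their part of that count was set by the filter. Cblb had a log2 ratio of -0.76, and Spry1 was under the minimum. In this comparison 9 genes had a lower ratio than Gadd45b and 23 a lower one than Dusp2.

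At 24 h the comparison of cultures with and without MDSCs asked what the suppressor cells changed on the first day. Spry1 was 2.14-fold lower with MDSCs (log2 ratio -1.10), the only member past 2-fold of the 6 at the minimum, where 0.297% of 6726 genes were 2-fold lower and 0.535% higher. Spry1 was at the minimum through the library without MDSCs only. Dusp4 was 1.83-fold lower (-0.87). In the list of all 6726 ratios 15 genes lay below Spry1 and 27 below Dusp4, while 952 lay below Gadd45b (-0.14), 1219 below Dusp5 (-0.10) and 1655 below Dusp2 (-0.05). These 3 ratios were small in size, and the median of all genes was 0.09. Cblb was at 0.25. Il2 itself was at 355 CPM with MDSCs and 715 CPM without (-1.01).

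The cultures with MDSCs also differed in other ways, whose part in these ratios was not tested. The myeloid marker list, of which 8 of 13 genes were in the table, summed to 25.4 CPM with MDSCs, of which Ly6c2 gave 20.04, and to 18.9 CPM without, of which Ly6c2 gave 18.8. The granulocyte marker S100a8 was at 2.29 CPM with MDSCs and at 0 without. Cells with 2 or more myeloid markers numbered 24 with MDSCs and 1 without, and leaving them out gave -1.07 for Spry1 and -0.87 for Dusp4. The summed adjusted count of 88 cell cycle genes had a median of 125 per cell with MDSCs and 86 without. When the cells of both libraries were divided into 3 sets by that sum, lowest first, the ratio of mean adjusted counts was -1.37, -0.96 and -0.71 for Spry1 and -1.74, -1.02 and -0.85 for Dusp4. Both genes were lower with MDSCs in each set, and the size of the difference was smallest in the set of highest sum. In 3 sets by genes above 0, lowest first, the ratio was -1.15, -1.49 and -0.66 for Spry1. For Dusp4 it was -1.18, -1.30 and -0.45.

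At 72 h, the comparison with and without MDSCs asked what differed later. Gadd45b was 6.29-fold lower with MDSCs (log2 ratio -2.65), and was the only member past 2-fold of 4 at the minimum, where 5.52% of 6697 genes were 2-fold lower and 2.08% higher. It was at the minimum through the library without MDSCs only, and 37 genes had a lower ratio. Dusp2 was at -0.84, Cblb at -0.52 and Dusp5 at -0.49, against -0.07 for the median of all genes. Dusp4, Dusp6, Spry1 and Spry2 were below 10 CPM in both libraries. Il2 was at 5.08 CPM with MDSCs and 8.98 CPM without.

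Transcripts of antigen-presenting cells differed between the same 72 h libraries. The dendritic cell list, of which 8 of 12 genes were in the table and none was at 0, summed to 67.6 CPM with MDSCs and 267 CPM without. The MHC class II gene H2-Ab1 stood at 16.0 CPM and detected in 19.95% of cells with MDSCs, and at 255 CPM and detected in 89.1% of cells without, where it made up most of the sum. Other genes of the list went the opposite way: H2-Eb1, another class II gene, was at 34.7 CPM (25.8% of cells) with MDSCs and 1.27 CPM (1.61%) without, and Cd74, the invariant chain, at 15.7 CPM with MDSCs and 2.91 CPM without. The defining marker Itgax was near 0 in both, at 0.0533 and 0.0343 CPM. Among cells at 0 for all of these markers, 2614 with MDSCs and 194 without, the Gadd45b log2 ratio was -2.46, with 12.0% and 41.2% of the cells above 0. Within the library without MDSCs the mean adjusted count of Gadd45b was 0.884 in the 1716 cells with H2-Ab1 and 0.881 in the 210 cells at 0 for it. Over all 1926 cells of that library the rank correlation of Gadd45b with H2-Ab1 was 0.13, and its part in the ratio was not tested. The ratio was also below -2 in each of 3 sets by cell cycle sum (-3.04, -2.17 and -2.68, lowest sum first).

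The relation to Il2 within cells was read in each 24 h library by itself. With MDSCs 980 of 2247 cells had Il2 above 0, and without MDSCs 818 of 1562 cells had it. Cells of a library share its depth and its free RNA, whose part was not tested, so these values describe cells and carry no p. Genes above 0 in 5% or more of the cells were set side by side, which left 6 members, since Dusp6 and Spry2 were below that share.

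Spry1 was above 0 in 13.5% (11.4 to 15.8%) of Il2-positive and 7.73% (6.32 to 9.35%) of Il2-negative cells with MDSCs. Without MDSCs the shares were 30.6% (27.4 to 33.8%) and 8.33% (6.45 to 10.6%). The log2 ratio of its mean adjusted count, Il2-positive over Il2-negative, was 0.96 with MDSCs and 2.04 without. In the library without MDSCs 2 of 8641 genes had a higher ratio than Spry1. The corresponding ratios were 1.01 and 1.27 for Dusp4, 0.73 and 0.84 for Dusp5, 0.54 and 0.57 for Dusp2 and 0.37 and 0.58 for Gadd45b. For Cblb they were -0.12 and 0.08, against medians of all genes of 0.06 in both, and 7624 of 8537 genes with MDSCs and 3925 of 8641 without had a higher ratio. Thus 3 of 6 members, Spry1, Dusp4 and Dusp5, were at least 1.5-fold higher in Il2-positive cells in both libraries, against 1.62% of 8537 genes with MDSCs and 2.93% of 8641 without.

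Across the range of Il2, the shares of cells with these genes were highest in the cells with most Il2. Among cells with MDSCs, Spry1 was above 0 in 7.73% at an Il2 adjusted count of 0, 7.06% at 1, 15.3% at 2 to 9 and 20.9% at 10 or more. Without MDSCs the shares were 8.33%, 18.6%, 27.3% and 47.3%. The intervals of the Spry1 shares overlapped between the libraries in cells at 0 for Il2 and did not overlap in the classes above it. Dusp4 was above 0 in 12.5%, 17.5%, 23.7% and 32.6% of the cells of these classes with MDSCs and in 18.3%, 21.1%, 40.0% and 54.5% without. Its shares were lower with MDSCs in all 4 classes, with overlapping intervals at an Il2 count of 1. Dusp5 was above 0 in 69.5% of the cells with MDSCs and 76.0% of those without at an Il2 count of 10 or more, against 40.9% and 41.0% at 0. Cblb stayed between 32.5% and 37.7% in all 8 classes.

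**Figure D2:**
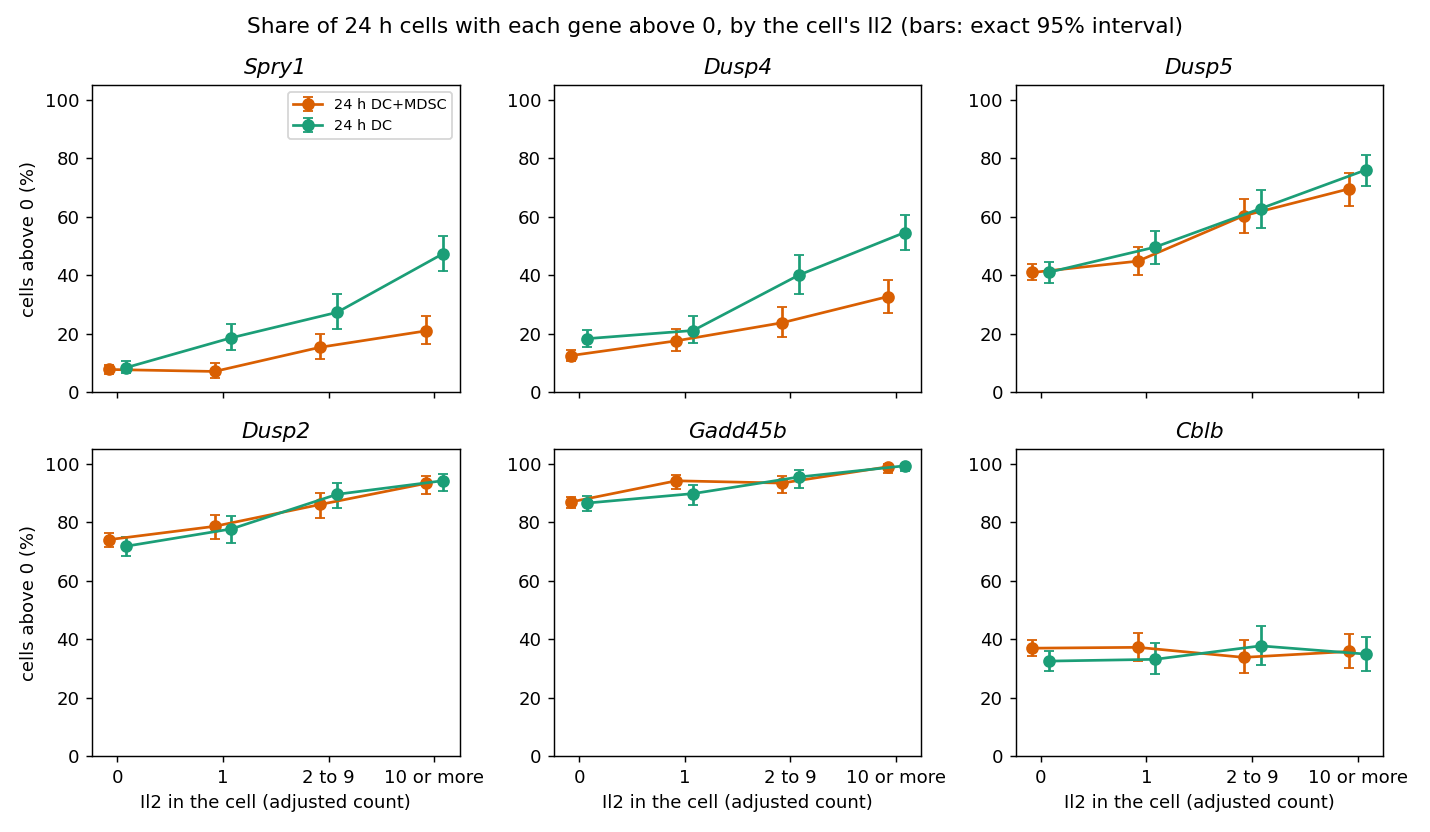
Share of 24 h cells above 0 (%, vertical axis) for 6 members by the Il2 adjusted count of the cell (horizontal axis), with MDSCs (orange) and without (green). Bars are exact 95% intervals of counting error. For Spry1 at an Il2 count of 10 or more the shares are 20.9% with MDSCs and 47.3% without, while the Cblb lines stay flat.

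The rank correlation with Il2 (Spearman's rho) over the cells of a library was 0.23 with MDSCs and 0.29 without for Dusp2, 0.22 and 0.34 for Gadd45b, 0.22 and 0.30 for Dusp5, 0.18 and 0.30 for Dusp4 and 0.13 and 0.35 for Spry1. For Cblb it was -0.02 and 0.03. All 5 positive values were lower with MDSCs, over 2247 cells with and 1562 cells without, as were those of 41 of the 45 other genes among the 50 with the highest mean rho. Ranked by the mean of both libraries among 8439 genes, Gadd45b stood at place 17, Dusp2 at 25, Dusp5 at 27, Spry1 at 33, Dusp4 at 36 and Cblb at 5077. The genes at the top of that order were Ccl4 (0.45) and Ccl3 (0.42), chemokines of activated T cells, and Nfkbia (0.40), the inhibitor of NF-kB. Il2 had a rho of 0.13 with the number of genes above 0 in cells with MDSCs and 0.07 in those without. Within 3 sets of cells by that number the averaged log2 ratio of Spry1 was 0.97 with MDSCs and 2.06 without, and that of Dusp4 0.89 and 1.31.

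**Figure D3:**
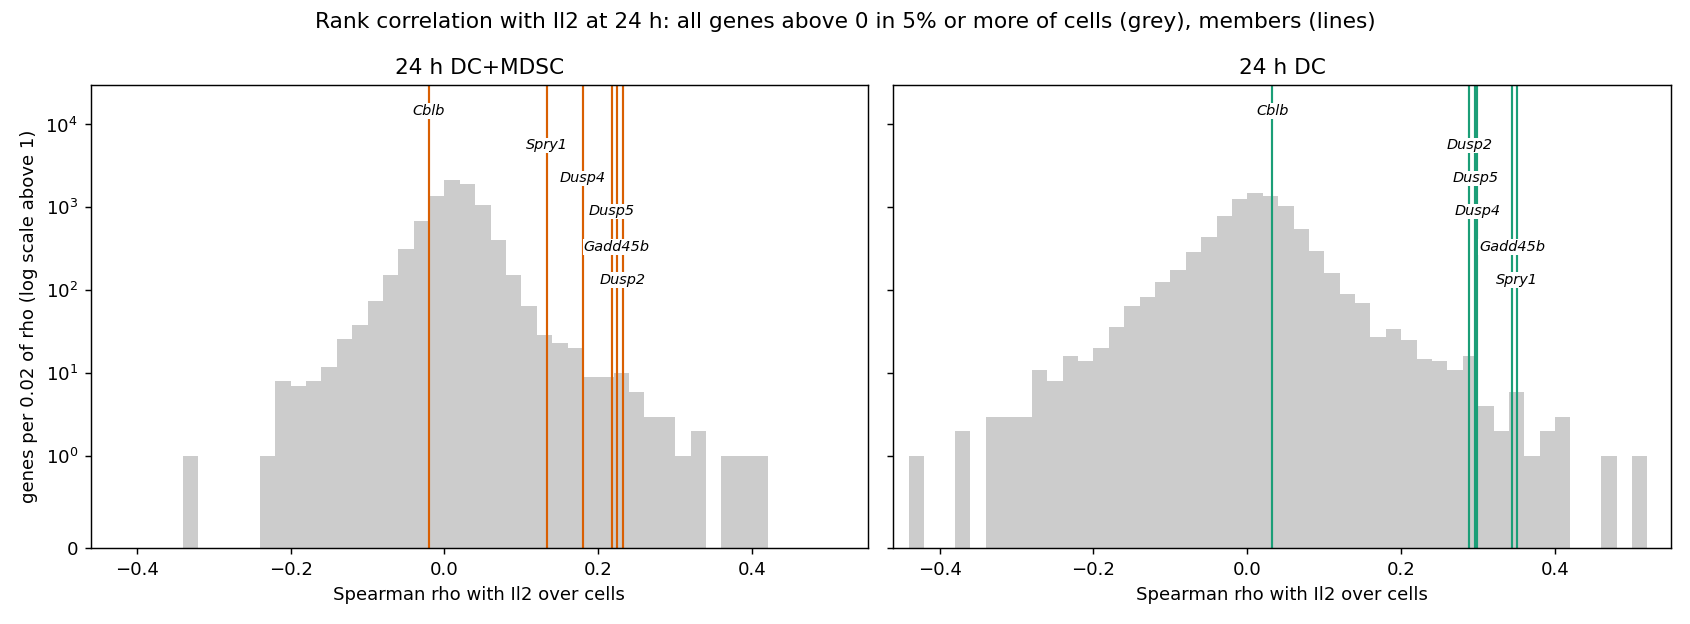
Number of genes per 0.02 of Spearman's rho with Il2 over cells (grey; vertical axis linear to 1 and logarithmic above) at 24 h with MDSCs (left) and without (right), with 6 members as lines. Apart from Cblb at -0.02 and 0.03 the members lie in the right tail, from 0.13 to 0.23 with MDSCs and from 0.29 to 0.35 without.

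Since fewer cells carried Il2 with MDSCs, the members were compared within classes of Il2 adjusted count. The classes of 2 to 9 and of 10 or more are ranges, so Il2 can still differ between the libraries within them. In Il2-positive cells its mean adjusted count was 12.5 with MDSCs and 21.2 without. The ratio of mean adjusted counts over all cells, with MDSCs over without, was -1.11 for Spry1 and -0.89 for Dusp4. With the cells with MDSCs weighted to the Il2 class shares of those without, it was -0.99 for Spry1 and -0.77 for Dusp4. In cells with an Il2 count of 10 or more, 282 with MDSCs and 275 without, it was -1.32 for Spry1 and -0.83 for Dusp4. In cells at 0 for Il2 it was -0.22 and -0.62, at an Il2 count of 1 -1.37 and -0.64, and at 2 to 9 -0.94 and -0.99. The ratio of Spry1 was thus nearest 0 in cells without Il2, with no steady order over the classes above. Among cells of high Il2, Gadd45b was at -0.33, Dusp5 at -0.17, Dusp2 at -0.15 and Cblb at 0.15.

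**Figure D4:**
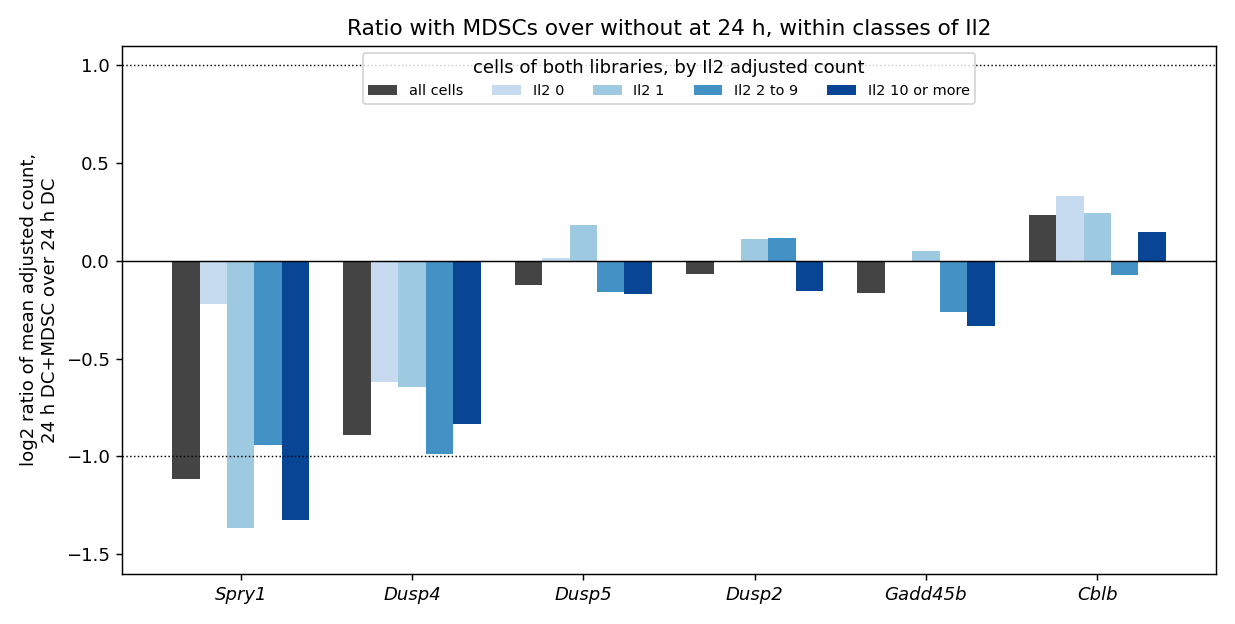
Log2 ratio of the mean adjusted count with MDSCs over without at 24 h (vertical axis; dotted lines at 2-fold) for 6 members, over all cells (dark grey) and in 4 classes of the cell's Il2 adjusted count (light to dark blue). Dusp4 is below 0 in every class, and Spry1 is at -0.22 in cells at 0 for Il2, at -1.37 at a count of 1 and at -1.32 in cells with 10 or more.

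The rank correlation between members over cells at 24 h was not set against that of other gene pairs. The rho of Dusp2 with Dusp5 was 0.23 with MDSCs and 0.29 without, the highest of the 28 pairs in both libraries. Dusp2 with Gadd45b had 0.09 and 0.26, Dusp5 with Gadd45b 0.13 and 0.24, and Dusp4 with Spry1 0.08 and 0.16. Cblb had at most 0.05 with any other member with MDSCs and at most 0.09 without. A cell had a median of 3 of the 8 genes above 0 in both 24 h libraries, with 4 or more in 28.2% of the cells with MDSCs and 38.5% without. At 0 h 51.2% of the cells had none. All genes above 0 in a cell had a median of 2210 at 0 h, 3621 at 24 h with MDSCs and 3583.5 without, and the counts of members were not set against other gene sets.

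**Figure D5:**
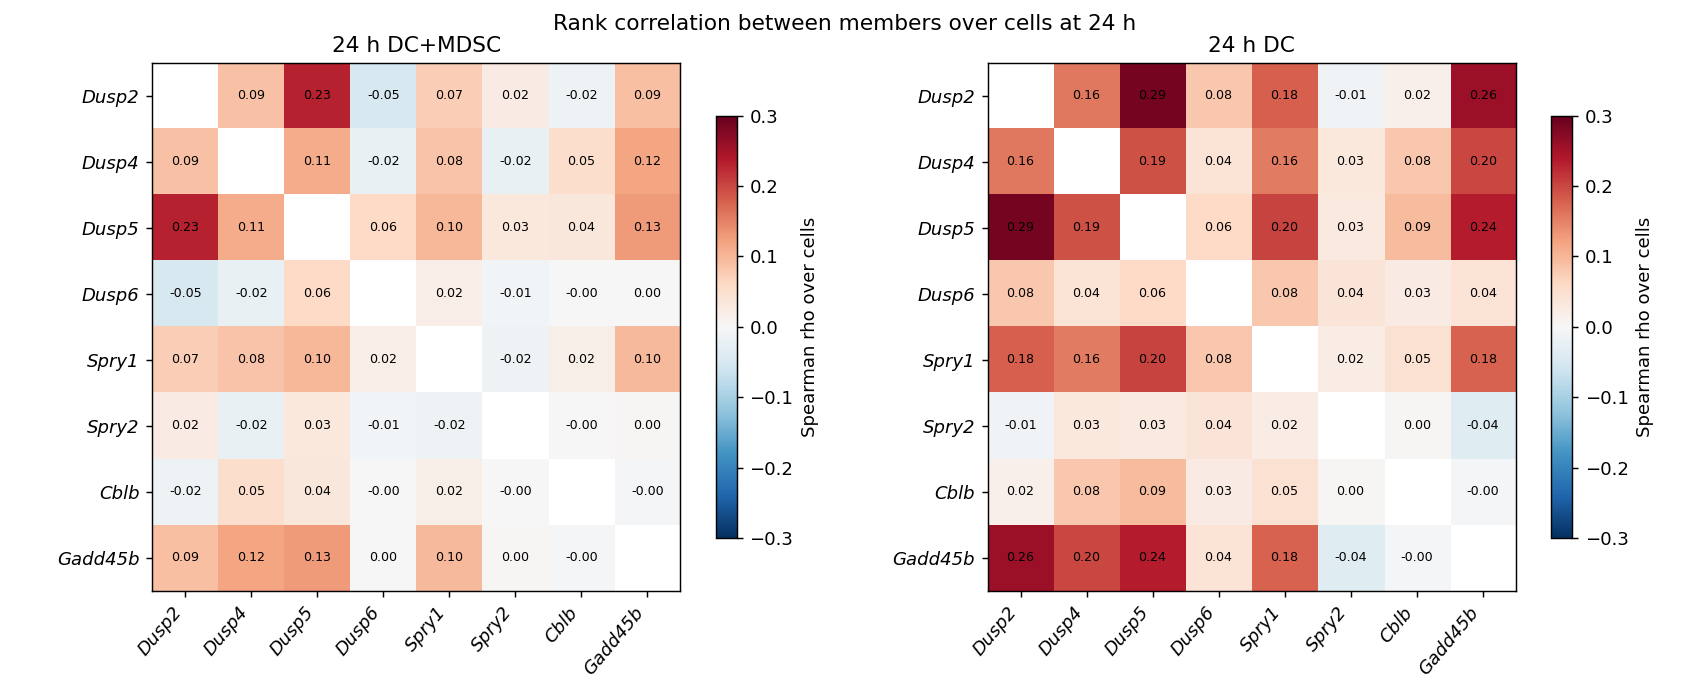
Spearman's rho over cells between each pair of the 8 genes at 24 h with MDSCs (left) and without (right), on a colour scale from -0.3 to 0.3. Dusp2 and Dusp5 have the highest value in both libraries, 0.23 with MDSCs and 0.29 without. The rows of Dusp6, Spry2 and Cblb run from -0.05 (Dusp2 with Dusp6, with MDSCs) to 0.09 (Dusp5 with Cblb, without).

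Over cells at 24 h, the genes most like each member were taken as those of highest mean rho among 5431 genes above 0 in 20% or more of the cells. For Spry1 these were Il2 (0.24), Ccl4 (0.23) and Ccl3 (0.20), and for Dusp4 Rap1b (0.25), Ccl4 (0.24) and Il2 (0.24). They were Ccl4 (0.34), Bhlhe40 (0.28) and Dusp2 (0.26) for Dusp5, Junb (0.32), Nfkbia (0.31) and Ccl4 (0.30) for Dusp2, and Nfkbia (0.38), Bcl2l1 (0.31) and Srgn (0.30) for Gadd45b. The highest value was 0.0809 for Cblb, 0.0772 for Dusp6 and 0.0615 for Spry2. By the pattern over the 5 libraries, as distance of centred log2(CPM + 1), Spry1 was nearest to Ccl1 (0.53), Rgs16 (0.66) and Lad1 (0.67). Dusp2 was nearest to Nfkbia (0.36), Dusp4 to Pdcd1, the gene of the inhibitory receptor PD-1 (0.56), Dusp5 to Tpst1 (0.26), and Cblb to AI314180 (0.12). For Gadd45b the nearest, Tbx21, was farther off at 1.53.

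Other genes of the same signalling layers were counted from lists. Between 24 h with DCs and 0 h, 40.9% of all 7006 genes at the minimum were 2-fold higher and 10.6% lower. Among 20 MAP kinase phosphatases and RAS-ERK brakes 12 were at the minimum in that comparison, with 3 higher and 3 lower past 2-fold. Dusp22 was at 23.5 CPM at 24 h and 2.49 CPM at 0 h, and Rasa3, a RAS inhibitor, at 5.23 and 44.7 CPM. Of 13 ubiquitin ligases and adaptors 5 were higher and 3 lower, and Cish, a cytokine signalling inhibitor, was at 118 CPM at 24 h and 5.90 CPM at 0 h. Of 16 phosphatases and kinases near the receptor 2 were higher and 7 lower (median log2 ratio -0.55), with Dgka, a kinase that removes diacylglycerol, at 17.8 and 125 CPM. Of 13 NF-kB and NFAT feedback genes 8 were higher and 1 lower (median 1.34), against 0.73 for all genes.

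With against without MDSCs at 24 h, none of these 4 lists had a gene past 2-fold. Each list held 10 to 13 genes at the minimum, and of all 6726 genes 0.297% were lower and 0.535% higher. At shares this low, a list with no gene past 2-fold says little about its genes. Of 16 genes of the ERK and calcium response 1 was higher, Ifng at 283 CPM with MDSCs and 123 CPM without, and 1 lower, Il2. At 72 h 4 of 11 genes of that response were 2-fold lower with MDSCs (median -0.69), as were 5.52% of 6697 genes (median -0.07). Among them Ier3, an early response gene, was at 15.9 CPM with MDSCs and 87.7 CPM without, and Junb, a subunit of AP-1, at 125 and 301 CPM.

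Within cells at 24 h, 5 of 14 NF-kB and NFAT feedback genes were at least 1.5-fold higher in Il2-positive cells in each library. Of all genes compared this held for 1.62% of 8537 with MDSCs and 2.93% of 8641 without. Tnfaip3, a deubiquitinase, Nfkbia, Nfkbid and Nfkbie were among them in both, with log2 ratios of 1.54, 0.88, 0.92 and 0.80 with MDSCs and 1.05, 0.92, 1.02 and 1.05 without. Of the MAP kinase phosphatases and RAS-ERK brakes this held for 0 of 13 genes with MDSCs and 5 of 16 without, namely Dusp1, Dusp14, Dusp16, Spred1 and Nf1. Dusp1 and Dusp14 were below the 5% share of cells with MDSCs and were not compared there. The log2 ratios with MDSCs were 0.57 for Dusp16, 0.36 for Spred1 and 0.34 for Nf1, against 0.86, 0.83 and 0.63 without. None of the ubiquitin ligases and adaptors was higher, and Socs1, an inhibitor of cytokine signalling, was lower in Il2-positive cells in both (-0.70 with MDSCs and -0.71 without). Gadd45g, of the same family as Gadd45b, had the opposite sign to it, at -1.01 with MDSCs and -0.98 without.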

How the data were processed

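Per the labels' protocols, sorted cells were run on the 10x Genomics platform. The submitters' processing notes name Cell Ranger 2.0.1, Seurat and the build mm10, but not what each was used for. The deposited values are on a natural log scale: each is ln(1 + k), where k, the authors' adjusted number for that gene in that cell, was whole within 1e-06 in every case. Depth, doublet treatment and use of strand are not given in the sources used here, and no doublet caller was run. The library of each cell came from the deposited cell annotation, and tables of single time points, adjusted separately, served as an alternative.

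For levels, k was summed over each library, using the table that holds all time points. A gene entered a comparison at 10 CPM or more in either library and was called at 2-fold; for Il2, genes above 0 in 5% or more of the cells were called at 1.5-fold. With 1 library per group no p was computed. The design had foreseen these ratios without a test. The 8 members, lists and comparisons were chosen with earlier results of these data known. Named genes were all members and Il2, the 2 of each list with the largest ratio each way past 2-fold at 20 CPM or more (not all of them printed), and the 3 genes most like each member. Genes named for the Il2 relation outside that rule, Gadd45g, Socs1, the NF-kB inhibitors and the brakes listed with them, and the marker genes were chosen after their values were seen. The calculation of the ratios was run on simulated Poisson counts with set changes. These lack the adjustment and the extra spread of the deposited values, and no 0 h library was simulated. Positions are from GENCODE M21. Python 3.11.15, numpy 2.4.6, scipy 1.17.1 and pandas 2.3.3 were used.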

Additional observations from a re-analysis of the deposited data

Results flagged for a closer look

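For Dusp4 and Cblb the ratio with MDSCs over without had opposite signs at 24 h and 72 h; with 1 library per group the difference between the time points was not tested. Dusp4 had a log2 ratio of -0.87 at 24 h and 0.27 at 72 h, where its levels were below 10 CPM in both libraries. The 72 h sign of Dusp4 did not hold in every set of cells. The ratio of mean adjusted counts was -0.55 among cells at 0 for all dendritic cell markers, 2614 with MDSCs and 194 without. It was -0.16 in the middle of 3 sets of cells by cell cycle sum, with the other sets above 0. In 3 sets by genes above 0 it was 0.18, 1.40 and 0.17. Alternative weights, totals, centring and cell filters gave 0.24 to 0.34. Cblb had 0.25 at 24 h, where the median of all genes was 0.09, and -0.52 at 72 h. Its 24 h sign did not hold in every set of cells either. The ratio was -0.02 in the set of highest cell cycle sum and -0.07 at an Il2 count of 2 to 9. In the other sets by cell cycle sum and the other Il2 classes it was above 0.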

How the results depend on the processing

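Of 192 member ratios under alternative weights, totals, centring and cell filters 185 moved by less than 1.5-fold, as did 80 of 84 Il2 ratios, and no called ratio changed sign. Counts of members past the limit changed more. With a minimum of 50 CPM, 3 members were higher at 24 h with DCs than at 0 h (6 at 10 CPM), 0 lower with MDSCs at 24 h (1) and 3 lower at 72 h than at 24 h with DCs (5). With no minimum, 1 was lower at 24 h with DCs than at 0 h (0), 2 lower with MDSCs at 24 h (1) and 1 higher at 72 h than at 24 h with MDSCs (0). At 1.5-fold, 2 were lower with MDSCs at 24 h (1) and 2 at 72 h (1). Against cells at 0 for Il2, 5 members were 1.5-fold higher in the upper of 3 sets of Il2-positive cells in both libraries, and 5 at an Il2 count of 10 or more, an alternative chosen after seeing the data (3 for all Il2-positive cells). The limits set these differences by construction. No paired analysis was possible because each group was 1 library and no test was run; for the same reason no library could be left out. Depth per cell is unknown, which limits the reading of members near 0, Spry2 above all.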

Other observations

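Outside the 24 h libraries Il2 was low, with a highest adjusted count of 4 at 0 h, 2 at 72 h with DCs and MDSCs and 4 at 72 h with DCs. Over the cells of those libraries the Spearman rho with Il2 lay near 0 for most members, for example 0.03 for Dusp2 and 0.00 for Gadd45b at 72 h with DCs, and -0.01 for Dusp2 and 0.01 for Gadd45b at 72 h with DCs and MDSCs. The highest value was 0.08, for Dusp6 at 72 h with DCs, where 225 of 1926 cells had Il2 above 0.

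In Dusp2-positive cells the mean adjusted count of Dusp2 was 3.61 with MDSCs and 3.74 with DCs alone at 24 h, and 1.35 with MDSCs and 1.58 with DCs alone at 72 h. At 0 h, where few of its values equalled 1, such a mean cannot be set beside these.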
